A study of Homo sapiens with 2 samples.

Results

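The actin cytoskeleton genes described here are 39 named genes: the actins, the tropomyosins and caldesmon, the transgelins and calponins, nonmuscle myosin, actin crosslinkers and adhesion linkers, the factors of filament turnover and nucleation, and SRF with its cofactor MKL1. They were picked by gene symbol, with the ratios of these same libraries already known, from a table of 40205 genes, and all 39 were found there. Their values are therefore a description of 2 libraries and carry no test. The cells were RKO, an established human colorectal carcinoma line. One group was transfected with an siRNA against hnRNPU, a nuclear RNA- and DNA-binding protein, and the other with a control siRNA (siNC). Each group held 1 library of total RNA, so no difference has a replicate check, and in such bulk RNA less RNA per cell cannot be told apart from fewer cells of a kind.

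Actin filaments give a cell its shape, carry tension and drive movement. Tropomyosins run along the filament and set which partners can bind it, caldesmon and calponins restrain myosin on it, and myosin II pulls on it. Monomeric actin holds the cofactor MKL1 (also called MRTF-A) in the cytoplasm, and when filaments assemble MKL1 is freed to join SRF on DNA, where SRF binds a 10-base element called the CArG box. Many genes of the filament itself are known SRF targets, which links filament state to the supply of its own parts.

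The boxes are shown here because they are the one feature of sequence that this gene group is known for. RefSeq promoters (build GRCh38.p14, 250 bases before to 50 after each start site) were given for 35 of the 39 genes; those of ACTB, TAGLN, MYL9 and PFN2 were not among them. A CArG box was taken as CC, then 6 bases that are A or T, then GG, a form that reads the same on both strands. It was found in 6 of the 35 genes (17.1%), against 438 of 27305 genes with a promoter (1.60%). Counted by promoter, it was in 6 of the 61 given for these genes, against 454 of all 35116 (1.29%). TPM4 held it in 1 of 3 promoters, ACTN1 in 1 of 4 and SRF in 1 of 2. This is a description, since the genes were chosen in part as known SRF targets. Each window below is 30 bases, written 5′ to 3′ on the strand of the gene, with the box in capitals.
TPM4 (chr19:16067355-16067384, plus strand; the box begins 173 bases before the start site): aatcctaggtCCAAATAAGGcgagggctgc
SRF (chr6:43171239-43171268, plus strand; 2 boxes, beginning 30 and 10 bases before the start site): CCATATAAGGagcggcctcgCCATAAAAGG
CNN2 (chr19:1026509-1026538, plus strand; 89 bases before the start site): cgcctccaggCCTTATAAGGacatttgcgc
ACTN1 (chr14:68977718-68977747, minus strand; 171 bases before the start site): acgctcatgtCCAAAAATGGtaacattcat
FLNA (chrX:154374709-154374738, minus strand; 94 bases before the start site): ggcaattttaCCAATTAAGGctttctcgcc
ACTG1 (chr17:81512874-81512903, minus strand; 94 bases before the start site): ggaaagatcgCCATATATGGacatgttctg

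Depths were inferred by taking the commonest FPKM times length among short RNAs as a single read. The result was 39807025 reads behind the hnRNPU siRNA library and 31801650 behind the control library. HNRNPU itself stood at 75.4 FPKM (fragments per kilobase of transcript, scaled to depth) in the hnRNPU siRNA library, against 239 FPKM in the control library. The library labelled as the knockdown thus held 0.315 of the control level. Of the colon epithelial markers, the keratin gene KRT18 stood at 81.6 against 88.1 FPKM and EPCAM at 13.7 against 13.8 FPKM, while KRT19, CDH1 and KRT20 were listed at 0 in both libraries. The highest of 10 muscle markers reached 0.0189 FPKM in the hnRNPU siRNA library and 0.211 in the control library. Fibroblast, endothelial and blood cell markers reached at most 0.0152 against 0.0287 FPKM.

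The group as a whole was split evenly between the libraries. Of the 39 genes, 36 had a mean of at least 1 FPKM, and 18 of these were higher in the hnRNPU siRNA library and 18 lower. Each ratio below is on the log2 scale after adding 1 FPKM to both values, hnRNPU siRNA over control siRNA, a scale that understates differences of low genes. Their median over the 36 genes was -0.01, against 0.00 over all 11567 genes with that mean. Summed over the 39 genes, the values came to 7402 FPKM, or 1.49% of all FPKM, in the hnRNPU siRNA library, against 7736 FPKM, or 1.53%, in the control library.

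Under 5 FPKM in both libraries were 5 genes, ACTA2, TAGLN, CNN1, MYH10 and MKL1, and the other 34 reached that level in the higher library. At a 2-fold difference, a log2 ratio of 1 or more, only TPM4 was higher among the 34, and only CALD1 was lower. The share of all 7958 genes at that level past the same limit was 0.314% higher and 0.754% lower. At a log2 ratio of 0.5 or more, TPM4 and ZYX were higher and CALD1 and MYL12A lower, 5.88% of the 34 in each direction, against 6.13% of all genes higher and 6.2% lower. Restricted to mRNA genes, the shares of all genes were 5.76% and 5.68%. CAPZB fell just short of the limit, with a ratio that rounds to 0.50, and TAGLN2 followed on the lower side at -0.46.

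**Figure D1:**
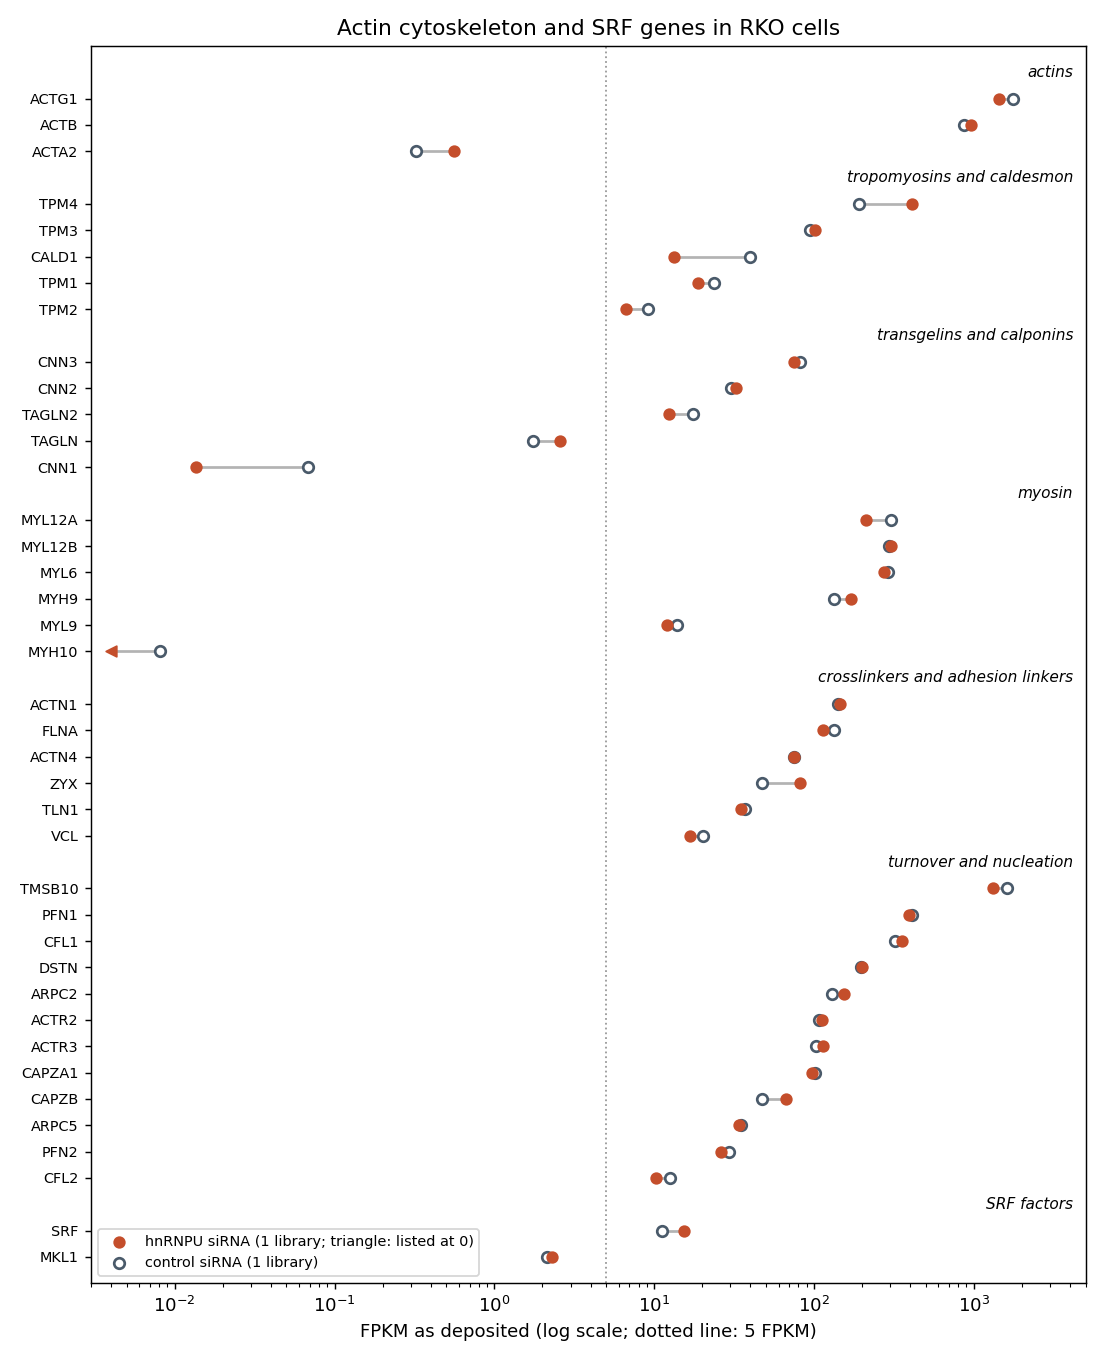
FPKM of each gene on a log axis, by class, in the hnRNPU siRNA library (filled points) and the control library (open points), 1 library each; the dotted line marks 5 FPKM and the triangle a gene listed at 0. Past that line most pairs of points touch or overlap, while TPM4 (409 against 193 FPKM), ZYX (82.4 against 47.2) and CALD1 (13.2 against 39.7) stand apart. Low genes such as CNN1 (0.0136 against 0.0680 FPKM) and ACTA2 (0.557 against 0.322) also stand apart, on few recovered reads.

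The cytoplasmic actins, which form the filaments of nonmuscle cells, differed in opposite directions. ACTG1, gamma-actin, stood at 1433 FPKM in the hnRNPU siRNA library and 1769 FPKM in the control library, a log2 ratio of -0.30. ACTB, beta-actin, stood at 963 FPKM in the hnRNPU siRNA library and 868 FPKM in the control library, a log2 ratio of 0.15. Both were among the 73 most abundant genes of either library. Their sum was 2396 FPKM in the hnRNPU siRNA library, against 2636 FPKM in the control library, and the beta form made up 40.2% of it against 32.9%. The length recovered for ACTB was over 1.3 times its longest annotated transcript, the form that counting a read in fractions over similar genes would give, so its value is less certain. The pseudogenes named for ACTB held 0.309 FPKM in all in the hnRNPU siRNA library and 0.281 FPKM in the control library. ACTG1 is listed on a scaffold outside the numbered chromosomes. The smooth muscle actin gene ACTA2 stood at 0.557 against 0.322 FPKM on 13 and 6 recovered reads, and the exact 95% counting interval of its FPKM ratio, 0.614 to 5.55, included 1.

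The tropomyosins and caldesmon held the widest differences of the group. TPM4, which encodes a short cytoskeletal tropomyosin, stood at 409 FPKM in the hnRNPU siRNA library and 193 FPKM in the control library. Its log2 ratio of 1.08 ranked 18 from the top of 7958 genes, and its FPKM ratio of 2.12 had a counting interval of 2.08 to 2.16. The gene lies on chromosome 19, positions 16178317 to 16213813 of GRCh37, plus strand. In order of abundance it ranked 121 of all genes in the hnRNPU siRNA library and 273 in the control library.

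The other 3 tropomyosin genes differed far less. TPM3, the next most abundant, stood at 102 FPKM in the hnRNPU siRNA library and 94.0 FPKM in the control library (0.11). TPM1, which encodes both muscle and stress fibre forms, stood at 18.7 FPKM in the hnRNPU siRNA library and 23.6 FPKM in the control library (-0.32). TPM2 had 6.71 FPKM in the hnRNPU siRNA library and 9.11 FPKM in the control library (-0.39). For all 3 the recovered length passed the same limit as for ACTB. For TPM3, 6 named pseudogenes were above 0 and summed to 6.99 FPKM in the hnRNPU siRNA library and 8.24 FPKM in the control library. The tropomyosin sum was 536 FPKM in the hnRNPU siRNA library, against 319 FPKM in the control library. TPM4 made up 76.3% of it in the hnRNPU siRNA library and 60.3% in the control library, while the share of TPM3 was 19.0% against 29.4%.

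CALD1, which encodes caldesmon, a tropomyosin-dependent inhibitor of actomyosin, stood at 13.2 FPKM in the hnRNPU siRNA library and 39.7 FPKM in the control library. The log2 ratio was -1.51, and only 5 of the 7958 genes lay lower. The FPKM ratio of 0.334 had a counting interval of 0.319 to 0.349 on 2759 and 6605 reads. CALD1 spans positions 134464164 to 134655480 on chromosome 7 of GRCh37, plus strand. Per length, TPM4 and CALD1 therefore differed in opposite directions, although both proteins bind the same filament.

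**Figure D2:**
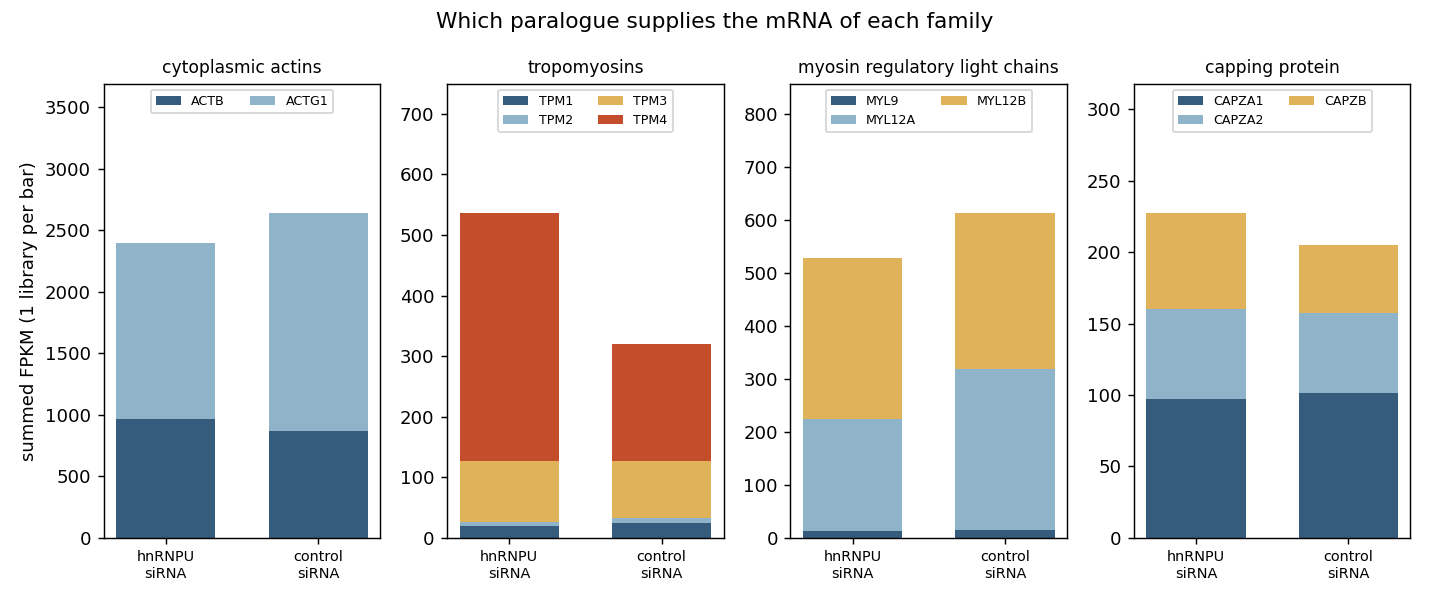
Summed FPKM of 4 families, with the hnRNPU siRNA library on the left of each panel and the control library on the right, stacked by paralogue. The tropomyosin bar is taller in the hnRNPU siRNA library (536 against 319 FPKM) through its TPM4 part, and the capping protein bar is slightly taller (227 against 205 FPKM), mostly in its CAPZB part.

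Transgelins and calponins bind along the filament and include classic markers of smooth muscle. The nonmuscle forms were the abundant ones. CNN3 stood at 75.4 FPKM in the hnRNPU siRNA library and 81.4 FPKM in the control library (-0.11). CNN2 stood at 32.7 FPKM in the hnRNPU siRNA library and 30.2 FPKM in the control library (0.11). TAGLN2, the transgelin of nonmuscle cells, had 12.5 FPKM in the hnRNPU siRNA library and 17.6 FPKM in the control library, a log2 ratio of -0.46 with a counting interval of the FPKM ratio of 0.644 to 0.781. The smooth muscle form TAGLN was near the lower end, at 2.57 against 1.76 FPKM, and its interval of 0.912 to 2.38 included 1. CNN1, the smooth muscle calponin, stood at 0.0136 against 0.0680 FPKM on 1 and 4 reads, with an interval of 0.00406 to 2.02. On the recovered reads, neither interval separated the libraries. The length recovered for TAGLN, 519 bases, was under its longest transcript of 3298 bases. The reads of TAGLN may thus be undercounted and its interval too wide.

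Myosin II is built of heavy chains, essential light chains and regulatory light chains. MYH9, the heavy chain of nonmuscle myosin IIA, stood at 170 FPKM in the hnRNPU siRNA library and 134 FPKM in the control library (0.34; counting interval of the FPKM ratio 1.25 to 1.28). It supplied 98.9% of the nonmuscle heavy chain FPKM in the hnRNPU siRNA library and 97.9% in the control library, with MYH14, which is outside the 39 genes, giving nearly all the rest. MYH10, the heavy chain of myosin IIB, was listed at 0 in the hnRNPU siRNA library and had 1 read in the control library. A count of 0 allows up to 0.0193 FPKM there, so no fold is given. The essential light chain MYL6 stood at 274 FPKM in the hnRNPU siRNA library and 291 FPKM in the control library (-0.08).

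The regulatory light chains, whose phosphorylation switches myosin II on, come mainly from MYL12A and MYL12B. These near-identical neighbours lie 6482 bases apart on chromosome 18. MYL12A stood at 212 FPKM in the hnRNPU siRNA library and 304 FPKM in the control library, a log2 ratio of -0.52 with a counting interval of the FPKM ratio of 0.679 to 0.716. MYL12B stood at 305 FPKM in the hnRNPU siRNA library and 295 FPKM in the control library (0.05). In the control library the pair was thus nearly level, and in the hnRNPU siRNA library MYL12B led. Both recovered lengths passed the limit given for ACTB, and that of MYL12A, 2458 bases, was 2 times its longest transcript of 1229 bases. How reads of shared sequence were assigned to each gene was not tested. With MYL9 (12.0 against 13.8 FPKM, -0.19), the family summed to 529 FPKM in the hnRNPU siRNA library, against 613 FPKM in the control library.

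Crosslinkers and adhesion linkers join filaments to each other and to integrin sites. ZYX stood apart from the other 5. It encodes zyxin, a protein of focal adhesions and stress fibres, and had 82.4 FPKM in the hnRNPU siRNA library, against 47.2 FPKM in the control library. Its log2 ratio of 0.79 ranked 85 from the top of 7958 genes, and the counting interval of the FPKM ratio was 1.68 to 1.82. ZYX lies on chromosome 7, positions 143078360 to 143088204 of GRCh37, plus strand. Of its known partners at the adhesion, VCL, vinculin, stood at 16.7 FPKM in the hnRNPU siRNA library and 20.1 FPKM in the control library (-0.26). TLN1, talin, stood at 34.9 against 37.2 FPKM (-0.09). The alpha-actinins were nearly level, with ACTN1 at 145 against 141 FPKM (0.03) and ACTN4 at 75.1 against 75.0 FPKM (0.00). FLNA, filamin A, stood at 114 FPKM in the hnRNPU siRNA library and 133 FPKM in the control library (-0.22), and like ACTG1 it is listed on a scaffold outside the numbered chromosomes.

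Among 12 genes of turnover and nucleation, 6 were higher and 6 lower in the hnRNPU siRNA library, and none passed a log2 ratio of 0.5 with 1 FPKM added. CAPZB, the beta subunit of the capping protein of the barbed end, came closest, at 67.2 FPKM in the hnRNPU siRNA library and 47.4 FPKM in the control library. The FPKM ratio was 1.42 with a counting interval of 1.36 to 1.48, and after rescaling both libraries to the same FPKM sum its log2 ratio was 0.53. Its alpha partner CAPZA1 stood at 97.5 FPKM in the hnRNPU siRNA library and 101 FPKM in the control library (-0.06). TMSB10, a thymosin that sequesters actin monomers, had 1311 FPKM in the hnRNPU siRNA library and 1611 FPKM in the control library (-0.30). Its direction was that of ACTG1.

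The remaining turnover genes lay closer together. Among the filament-severing proteins, CFL1 stood at 354 against 323 FPKM (0.13) and DSTN at 201 against 196 FPKM (0.03), while the muscle form CFL2 stood at 10.3 against 12.5 FPKM (-0.26). CFL1, like MKL1 below, passed the limit on recovered length given for ACTB. Both profilins, which feed monomers to growing ends, were slightly lower in the hnRNPU siRNA library. PFN1 stood at 392 against 408 FPKM (-0.06) and PFN2 at 26.3 against 29.5 FPKM (-0.16). Of the subunits of the Arp2/3 complex, which starts branched filaments, ARPC2 stood highest in ratio at 154 against 129 FPKM (0.26). ACTR3 followed at 114 against 103 FPKM (0.14) and ACTR2 at 113 against 108 FPKM (0.06), with ARPC5 at 34.2 against 34.8 FPKM (-0.03).

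**Figure D3:**
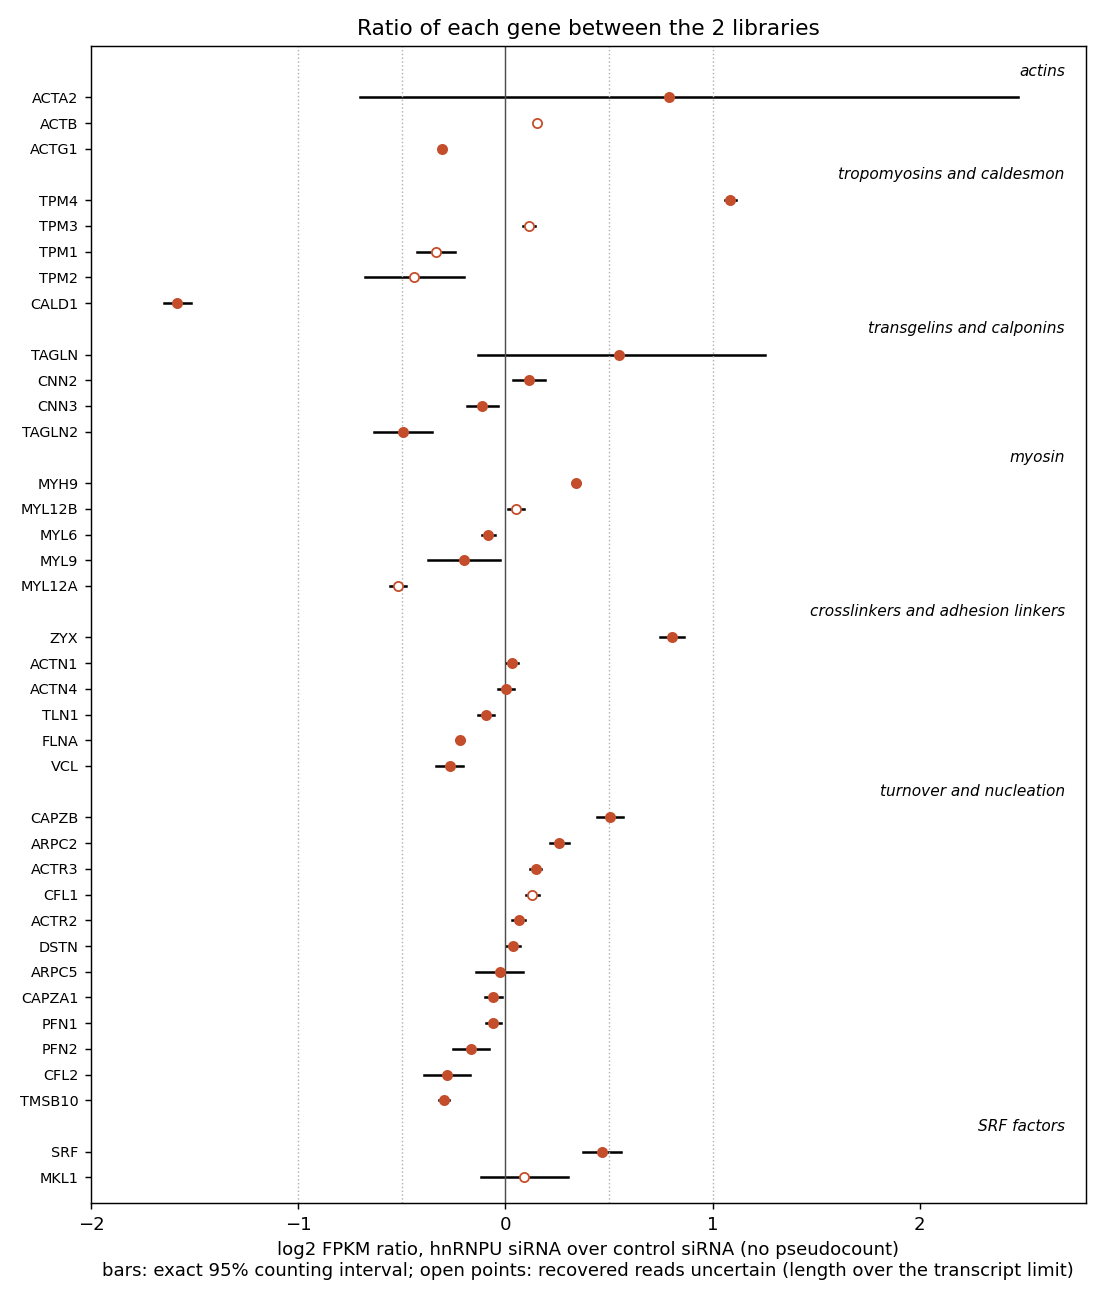
Log2 FPKM ratio, hnRNPU siRNA over control siRNA and with no pseudocount, for the 37 genes with more than 4 reads in each library; bars are exact 95% counting intervals, which cover counting error only, and open points mark genes whose recovered length passed the transcript limit. CALD1 and TPM4 lie past the 2-fold lines on opposite sides, and the wide bars of ACTA2 and TAGLN cross 0.

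SRF, the transcription factor itself, stood at 15.4 FPKM in the hnRNPU siRNA library and 11.1 FPKM in the control library, a log2 ratio of 0.43. On 2640 and 1527 reads, the FPKM ratio had an interval of 1.30 to 1.47. MKL1 stood at 2.28 FPKM in the hnRNPU siRNA library and 2.15 FPKM in the control library (0.06), and its interval of 0.921 to 1.23 included 1. Of the 6 genes with a CArG box in the windows printed above, TPM4, SRF, CNN2 and ACTN1 were higher in the hnRNPU siRNA library and FLNA and ACTG1 lower. Their log2 ratios ran from -0.30 for ACTG1 to 1.08 for TPM4, with a median of 0.07. The median of the genes with a promoter but no box was -0.04, over those with a mean of at least 1 FPKM. ZYX and CALD1 had no box in this window.

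Other genes of actin regulation were taken from 8 lists that hold 130 genes outside the 39. Of these, 115 had a mean of at least 1 FPKM, 47 higher and 68 lower in the hnRNPU siRNA library, with a median log2 ratio of -0.04. At 5 FPKM, 3 of 94 genes were at 0.5 or more and 12 at -0.5 or less, to be read beside the 6.13% and 6.2% of all genes. RAC1, the GTPase that drives lamellipodia, stood at 104 FPKM in the hnRNPU siRNA library and 64.1 FPKM in the control library (0.69). MYO19, a mitochondrial myosin (0.61), and TUFT1 (0.60) were the other 2 on the higher side.

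The recovered length of RAC1 passed the limit given for ACTB. TES, testin, a LIM protein of focal adhesions known to bind zyxin, was more than 2-fold lower, at 8.62 FPKM in the hnRNPU siRNA library and 18.6 FPKM in the control library (-1.03). Thus TES and ZYX lay on opposite sides.

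The lists themselves centred near 0. The other Arp2/3 subunits had a median of 0.12 over 6 genes, from ARPC1A (-0.47) and ARPC1B (-0.03) to ARPC5L (0.21) and ARPC4 (0.31). Nucleators and their promoters had 0.08 over 19 genes; the WAVE complex gene BRK1 (0.48) and cortactin, CTTN (0.33), were highest, and the formins DAAM1 (-0.43) and DIAPH3 (-0.60) lowest. Small GTPases and their effectors had -0.01 over 16 genes, with the kinase PAK2 at 0.43, citron kinase, CIT, at -0.59 and the cofilin phosphatase SSH1 at -0.66.

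Medians of -0.09 or lower were found in 4 lists. Other turnover genes had -0.17 over 17 genes, with 12 lower: TMSB4X, the second thymosin, stood at 30.1 against 48.4 FPKM (-0.67) and gelsolin, GSN, at -0.61, while TMOD3 (0.29) and WDR1 (0.24) were highest. Other crosslinkers had -0.09 over 21 genes, between PTK2 (0.38) and LCP1 (0.29) at the top and TLN2 (-0.73) and EPS8 (-0.75) at the bottom. Other myosins had -0.16 over 10 genes, with MYO5A at 0.07, MYO6 at -0.43 and MYO1E at -0.49. Other SRF targets had -0.12 over 22 genes, 15 of them lower; JUNB stood at 0.35 and MICAL2 at -0.62. The ternary complex factors, the second family of SRF partners, were split, with ELK1 at 0.28, ELK4 at 0.24 and ELK3 at 28.5 against 44.4 FPKM (-0.62).

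**Figure D4:**
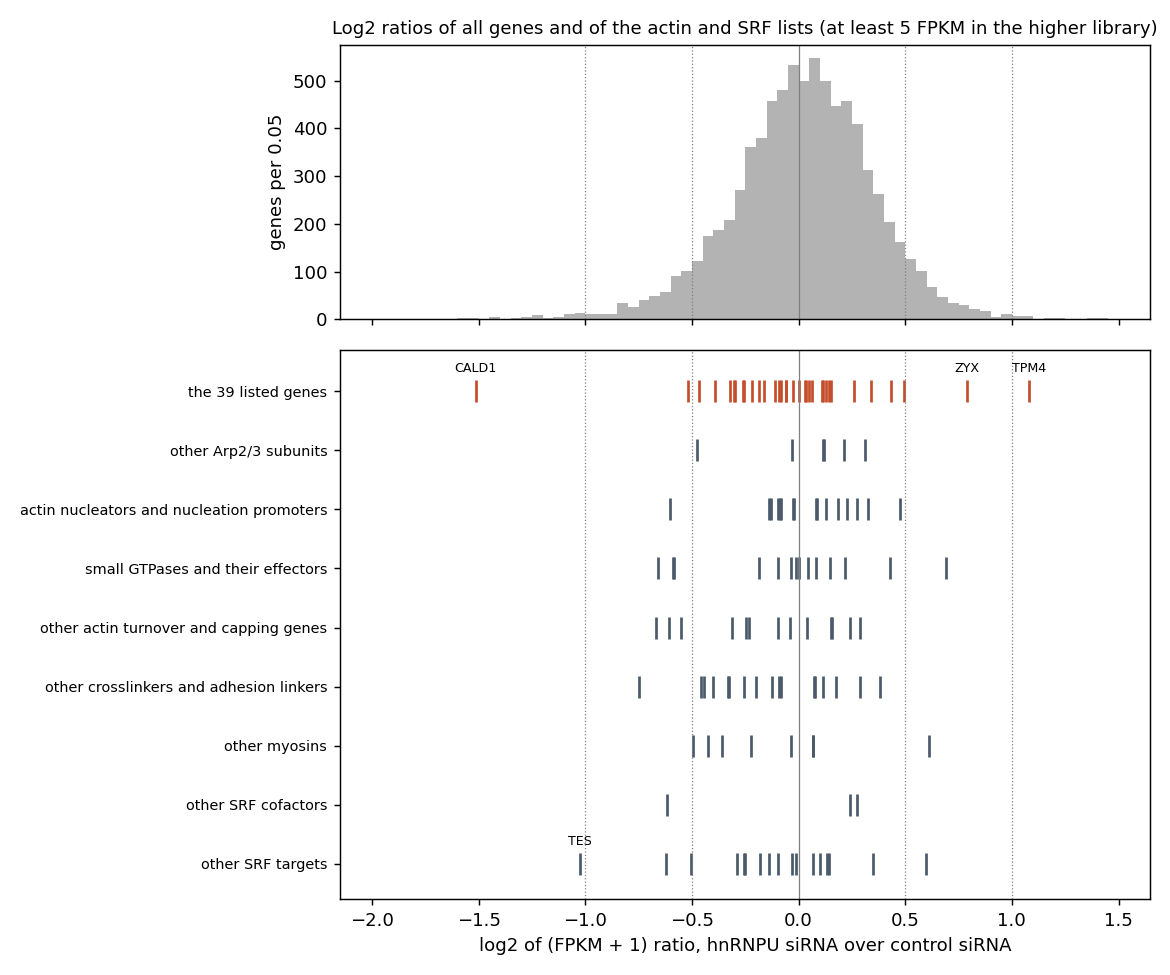
Top, number of genes per 0.05 of log2 ratio of (FPKM + 1), hnRNPU siRNA over control siRNA, for the 7958 genes that reached 5 FPKM in either library; bottom, each gene of the 39 and of 8 further lists as a tick on the same axis. Most ticks lie within 0.5 of 0, and the named ticks are CALD1 (-1.51), TES (-1.03), ZYX (0.79) and TPM4 (1.08).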

How the data were processed

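RNA of RKO cells was sequenced after transfection with an siRNA against hnRNPU or a control siRNA, 1 library each. Groups came from the treatment labels. Per the file headers, the table the authors deposited holds FPKM, with 1 value for each gene in each library. The submitters' processing notes name Bowtie and GRCh37 without roles or versions. The counting program, the annotation and any use of strand are not stated there.

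The members, lists and rules were chosen with earlier results of these data known. All 39 members and HNRNPU are named, with the 2 highest and 2 lowest genes of each other list at 5 FPKM, apart from 2 places. There DAAM1 and TLN2, both under 5 FPKM, are named instead of ABI1 (log2 ratio -0.14) and ANLN (-0.46). Some genes of these lists are not reported here and were left out of their counts. Ratios used a pseudocount of 1 FPKM. Calls needed 5 FPKM in the higher library and medians a mean of 1 FPKM. Since each group held 1 library, no test was made.

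The commonest value of FPKM multiplied by length among short RNAs was taken as a single read, which gave the depths. With these depths, 36.0% and 35.3% of these RNAs in the hnRNPU siRNA and control libraries held whole reads within a tolerance of 1e-06. The rest did not, so the depths are inferred. Reads and length were then recovered per gene as a ratio of whole numbers, in which a common factor is lost. Recovered reads can therefore be too few and their intervals too wide. Where the length passed 1.3 times the longest GENCODE 29 transcript, reads were divided down, which widened the interval; this held for 8 members. Exact Clopper-Pearson 95% intervals and the limit of 3 reads for a count of 0 cover counting error only. Steps were tested on simulated data with Python 3.11.15 and scipy 1.17.1. The simulated reads were all whole, and the interval check used the simulated reads, not recovered ones. Reads counted in fractions and a lost common factor were therefore not tested. Alternatives were other pseudocounts, rescalings and minimum levels.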

Additional observations from a re-analysis of the deposited data

How the results depend on the processing

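No paired analysis was possible because neither group held more than 1 library. Comparing the background among mRNA genes alone was chosen after seeing the data; the other alternatives were planned. Medians and sums counted as moved beyond 0.1 on the log2 scale. HNRNPU, at -1.655, moved past its counting interval to -1.61 with 5 FPKM added, to -1.62 with the 2 FPKM sums made equal and to -1.70 by the upper quartile, each by the construction of the alternative. The count of members at -0.5 or less, 2, was 1 after rescaling to the same sum, where MYL12A came to -0.49, and 1 among members with whole reads, which leaves MYL12A out; it was 3 by the upper quartile, where TAGLN2 came to -0.51. The count at 0.5 or more, 2, was 3 through CAPZB with 0.1 or 0.5 FPKM added (0.50 in both) and after rescaling to the same sum (0.53). Class medians moved with the members admitted: actins to 0.15 with no minimum and -0.30 with whole reads, tropomyosins and caldesmon to -0.22 with whole reads, transgelins and calponins to -0.11 at 5 FPKM, SRF factors to 0.43 at 5 FPKM or with whole reads (1 gene). Other SRF cofactors, at 0.01, moved to -0.11 with no minimum and 0.24 at 5 FPKM. The direction of ARPC5 was turned by rescaling to the same sum, and those of MYL12B, ACTN1, ACTN4 and DSTN by the upper quartile; all 5 lay within 0.1 of 0. TPM4 ranged from 1.03 to 1.11, ZYX from 0.74 to 0.82 and CALD1 from -1.58 to -1.29 over the alternatives. Among all member ratios under other pseudocounts and rescalings, 32 values moved, past the counting interval or past 0.1 for MYH10, and 202 did not. TPM4 was among the 32 after rescaling to the same sum (1.11) and by the upper quartile (1.03). The narrow counting intervals of abundant members therefore do not cover the choice of scaling. Few recovered reads limited ACTA2, TAGLN, CNN1 and MYH10, and a lost common factor can make such reads too few.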

Other observations

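Beyond the actin genes, 105 of 6296 genes with a RefSeq promoter and at least 5 FPKM in the higher library held a CArG box in it. Their median log2 ratio was -0.03, against 0.04 for the genes without a box, and 49 of the 105 were higher in the hnRNPU siRNA library. At a log2 ratio of 0.5 or more, 9 were higher, and 12 were at -0.5 or less, to be read beside 6.13% and 6.2% of all 7958 genes at that level. The box was also present in a promoter of ROCK2, SVIL, MYO1E, EGR1, FHL2, TGFB1I1, TES and SMTN among the further actin and SRF genes. MYLK, EGR2 and FHL1 of these lists held it too, but were under 1 FPKM in both libraries.

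Some members overlap or resemble other listed genes. The span of TLN1 overlaps that of CREB3 on the opposite strand, which stood at 17.1 FPKM in the hnRNPU siRNA library and 10.8 FPKM in the control library. ACTA2 overlaps STAMBPL1 on the opposite strand, at 3.45 FPKM in the hnRNPU siRNA library and 5.95 FPKM in the control library, and FAS, also on the opposite strand, at 6.66 FPKM in the hnRNPU siRNA library and 6.17 FPKM in the control library, all above the level of ACTA2 itself. Named pseudogenes of DSTN summed to 5.47 FPKM in the hnRNPU siRNA library and 4.31 FPKM in the control library. The part of these overlapping genes and pseudogenes in the values of the members was not tested.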
